A study of Mus musculus with 10 samples.

Results

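The MLL-AF9 program was followed through 9 genes: the homeobox genes Hoxa7, Hoxa9 and Hoxa10, the homeobox cofactors Meis1 and Pbx3, the transcription factors Mef2c and Myb, the transcriptional coactivator Eya1, and Hmga2, which encodes a chromatin architectural protein. The genes were named as known parts of the program and found by symbol among the 52550 genes of the count table. Of the 9 genes, 8 reached the minimum of 10 counts summed over all libraries, and Eya1, with 1 count, was not measured. The comparison asks whether these genes change when miR-139 is induced in cells that MLL-AF9 has transformed.

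MLL-AF9 is a fusion oncoprotein in which the N-terminal part of the histone methyltransferase MLL is joined to AF9, a member of a transcription elongation complex. It binds chromatin at homeobox genes of the Hoxa cluster and at Meis1 and keeps them transcribed, at levels that normal cells lose as they leave the stem and progenitor stage. HOXA9 binds DNA together with MEIS1 and PBX3, and this complex and the transcription factor MYB sustain the self-renewal of MLL-rearranged acute myeloid leukemia cells. A microRNA such as miR-139 acts after transcription: it pairs through its seed with sites in the 3′ UTR of an mRNA and lowers the stability or translation of that mRNA.

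The cells came from hematopoietic stem and progenitor cells (HSPCs) of wild-type C57BL/6 mice aged 8 to 20 weeks. They were transformed in culture by a retrovirus that expresses MLL-AF9, then given a retrovirus for the tetR-KRAB repressor and a lentiviral vector that responds to doxycycline (DOX). The vector holds miR-139 in MLL-AF9-i139 cells and eGFP in MLL-AF9-ieGFP cells. Of MLL-AF9-i139, 3 clones were sequenced without DOX and with DOX at 5 µg/mL, for 48 h in clones 1 and 2 and for 72 h in clone 3, so that clone 3 and the longer treatment cannot be told apart. No time is given for the untreated MLL-AF9-i139 cultures. Of MLL-AF9-ieGFP, 1 clone was sequenced after 48 h and after 72 h, each time as an untreated and a DOX culture. Each clone grew from a picked colony, and nothing says whether the clones came from separate transductions, so the p-values measure the spread between these cultures only.

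The libraries held between 35133308 and 47089725 counts, and no pair of libraries of a group agreed within sampling noise. The limit that a count of 0 allows, 3 counts, was worth 0.0637 to 0.0854 CPM (counts per 1000000). The 8 myeloid progenitor markers summed to between 989.0 and 2300.0 normalized CPM. Of these, Kit stood between 131.5 and 171.6 normalized CPM in all libraries. Cd34 had 0 or 1 count in each untreated library, and Itgam had 0 to 3 counts per library. Another annotated gene covers 99.92% of the body of Itgam. Markers of T cells summed to between 2.76 and 5.18 normalized CPM over 6 genes, of B cells to between 0.813 and 1.74 over 5 genes, and of erythroid cells to between 1.71 and 2.71 over 5 genes, with Cd3e and Hba-a1 each at 0 to 2 counts per library. The stromal list summed to between 18.0 and 38.7 normalized CPM, nearly all of it from Pecam1, which myeloid cells also express, while Col1a1 had 0 to 2 counts per library. In bulk RNA, fewer cells that express a gene and less RNA of it per cell cannot be told apart.

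The mature strands of miR-139 are shown first because their seeds define the sites that were looked for. They are given 5′ to 3′ from RefSeq (GRCm38.p6), and the seed (bases 2 to 8) is in capitals.
miR-139-5p: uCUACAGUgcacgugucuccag
miR-139-3p: uGGAGACGcggcccuguuggag

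Sites were searched on the sense strand of the longest annotated 3′ UTR of each gene, as ACTGTAG or CTGTAGA for miR-139-5p and as CGTCTCC or GTCTCCA for miR-139-3p. The motifs of each strand overlap, and a site that holds both (ACTGTAGA for miR-139-5p) is a match of 8 bases. Of 13995 tested genes with a 3′ UTR, 21.7% held a match of 7 or 8 bases to miR-139-5p, 15.9% one to miR-139-3p and 31.8% one to either. Among the 9 genes, Hoxa9 and Meis1 held a match to miR-139-5p, and Hoxa9, Eya1 and Hmga2 one to miR-139-3p. Hoxa7, Hoxa10, Pbx3, Mef2c and Myb held none, which says only that these letters are not in that stretch of the mRNA. The windows below end opposite the first base of the microRNA and are shown because Hoxa9 and Meis1 are the well-measured genes of the program that carry a match. The matched bases are in capitals.
Hoxa9, 8-base match to miR-139-5p: actgctcttgggctACTGTAGA
Hoxa9, 7-base match to miR-139-3p: aagaaaggactgtcCGTCTCCc
Meis1, 7-base match to miR-139-5p: agataacacttgaaACTGTAGt
In GRCm38 they lie on the minus strand, in the last exon of each gene: the Hoxa9 windows at chr6:52223238-52223259 and chr6:52224178-52224199, in exon 2 of 2, at positions 1000 and 60 of its 3′ UTR, and the Meis1 window at chr11:18884668-18884689, in exon 10 of 10.

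In untreated MLL-AF9-i139 cells the program was expressed at unequal levels. Per kilobase of exon, the mean level was 50.4 CPM for Myb, 37.7 for Hoxa10, 30.9 for Pbx3, 21.8 for Hoxa9, 13.9 for Hoxa7 and 9.69 for Meis1 (SD 3.29, 3.13, 6.31, 3.11, 1.44 and 0.871, n = 3 clones). Only Hoxa10 and Pbx3 overlapped among neighbours in this order. Mef2c was far lower, at 0.299 ± 0.259 CPM per kilobase. The order depends on which length is used. Reads appear to have been counted over whole gene bodies, and per kilobase of gene body Hoxa9 (15.3), Hoxa10 (12.8) and Myb (12.5) led with overlapping ranges, while Pbx3 and Meis1, which have long introns, fell to 0.935 and 0.733 CPM.

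With DOX, the homeobox genes Hoxa10 and Hoxa9 were lower in all 3 MLL-AF9-i139 clones, at 0.767-fold and 0.785-fold of the untreated level with the clone as a block. In fits of all 3 clones these calls came only with the clone in the model, and the other 6 measured genes were called in no fit of all 3 clones. Meis1 and Myb also stood lower in each clone, as did 26.5% of all genes tested, without passing the test. Without the clone in the model, 0 of the 8 measured genes were called at an adjusted p under 0.05 (quasi-likelihood test of edgeR, p-values adjusted over all genes by Benjamini-Hochberg), beside 12 of 19223 genes overall (0.0624%). An unadjusted p under 0.05 was reached by 2 of the 8, Hoxa9 and Hoxa10, and by 20.6% of all genes, and DESeq2 called 0 of the 8 and 8.09% of all genes. With the clone as a block, edgeR called Hoxa9 and Hoxa10, both lower, beside 12.4% of all genes called in either direction, 5.33% called lower and 7.05% called higher. The median log2 fold change of the 8 genes was -0.07 in this fit, against 0.01 for all genes tested. The plot of the 8 genes by library shows each clone before and after DOX.

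**Figure D1:**
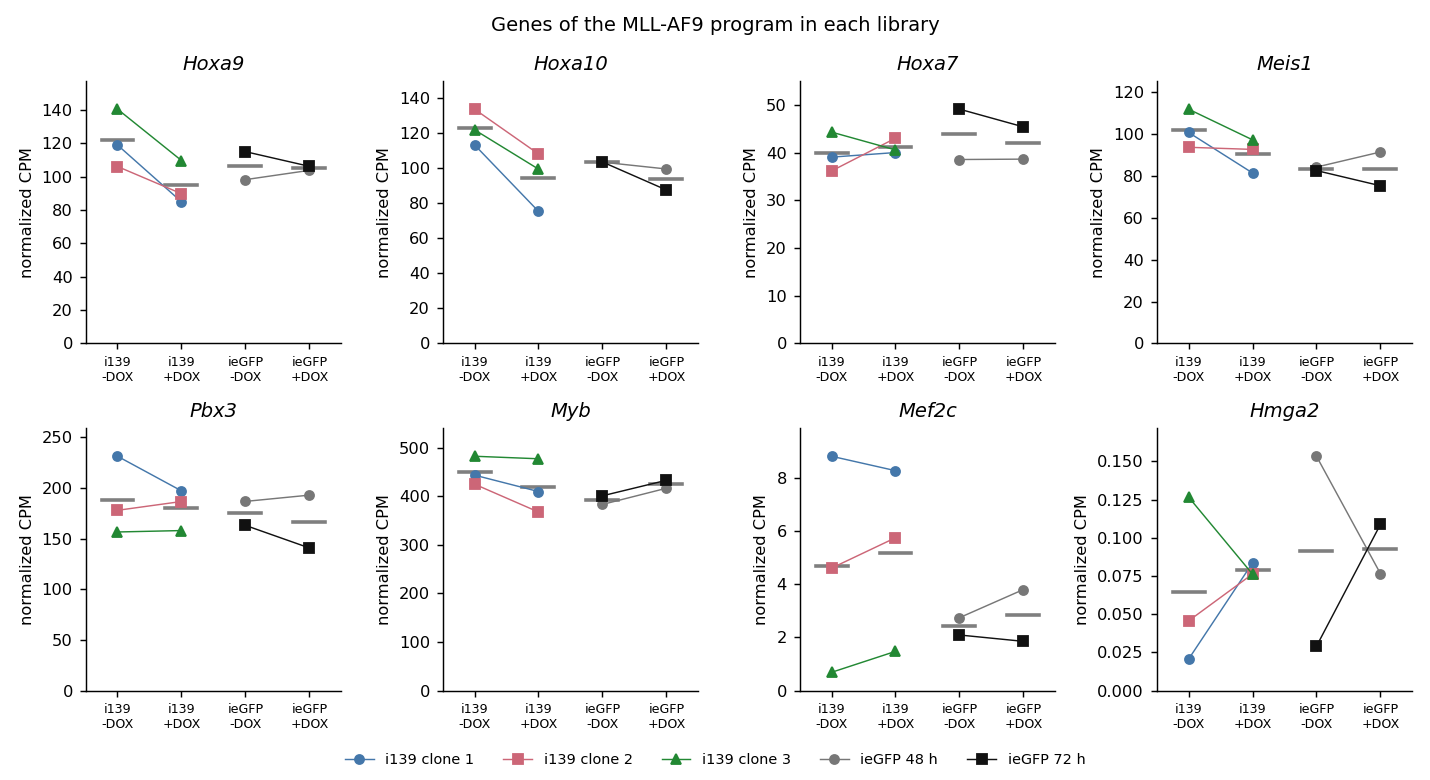
Normalized CPM (y axis, from 0) of the 8 measured genes in each of the 10 libraries, by construct and DOX (x axis). Lines join the cultures of a clone or time point without and with DOX, and thick grey bars are group means. The 3 MLL-AF9-i139 lines slope down for Hoxa9 and Hoxa10, and the clones lie far apart for Mef2c; Hmga2 rests on 1 to 7 counts per library.

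Hoxa10 (ENSMUSG00000000938, chromosome 6 from 52231197 to 52240854 of GRCm38, minus strand) encodes a posterior homeobox factor that supports expansion of myeloid progenitors. It stood at 113.5, 133.9 and 122.1 normalized CPM in untreated clones 1, 2 and 3, and at 75.5, 108.3 and 99.6 with DOX. Every DOX library lay below every untreated library, as was so for 12.8% of all genes tested, and clone 1 was the lowest. The group means were 123.2 ± 10.2 without and 94.5 ± 17.0 with DOX (SD, n = 3). Without the block edgeR put the log2 fold change at -0.37 (SE 0.14, adjusted p = 0.204), and with it at -0.38 (SE 0.09, adjusted p = 0.0409). No annotated gene overlaps Hoxa10, so its reads are not shared with another gene.

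Hoxa9 (ENSMUSG00000038227, chromosome 6 from 52223100 to 52231089, minus strand), the homeobox gene most closely tied to MLL-rearranged leukemia, stood at 119.0, 106.1 and 140.5 normalized CPM in the untreated clones and at 84.9, 89.8 and 109.7 with DOX. Each clone was lower with DOX, but the groups overlapped, because clone 3 with DOX lay above untreated clone 2. The means were 121.9 ± 17.4 and 94.8 ± 13.1 (SD, n = 3). In edgeR this was a log2 fold change of -0.35 (SE 0.14, adjusted p = 0.213) without the block and of -0.35 (SE 0.08, adjusted p = 0.0428) with it. DESeq2 with the block also called Hoxa10 (adjusted p = 0.0115) and Hoxa9 (adjusted p = 0.0168), beside 15.8% of all genes.

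Both calls need all 3 clones or clones 1 and 2. Calls over all genes also fell with the block, from 2381 with all 3 clones to 324 without clone 1 and 580 without clone 2. With the block, neither gene was called without clone 1 (adjusted p, edgeR, 0.317 for Hoxa10 and 0.324 for Hoxa9) or without clone 2 (0.142 and 0.149), where the log2 fold changes were -0.30 for both genes without clone 1, and -0.43 and -0.41 without clone 2. Without clone 3 both were called (adjusted p = 5.2e-07 and 2.26e-05, edgeR), as was Hoxa7, higher (log2 fold change 0.16, adjusted p = 0.0443, edgeR), in a fit with 1 residual degree of freedom. That fit called 7974 genes, against 2381 of 19223 with the block and all 3 clones. The 95% interval of the blocked fit with all 3 clones ran from 0.661-fold to 0.889-fold for Hoxa10 and from 0.684-fold to 0.901-fold for Hoxa9. Among 10830 genes with an average log2 CPM of at least 1, 28.2% had a larger absolute change than Hoxa10 and 32.1% a larger one than Hoxa9.

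Hoxa7 (ENSMUSG00000038236, chromosome 6 from 52214491 to 52221854), the third homeobox gene and the next one along the cluster, was not called in a fit of all 3 clones. It stood at 39.1, 36.2 and 44.3 normalized CPM without and at 40.0, 43.0 and 40.6 with DOX. The groups overlapped, and clone 2 was higher with DOX while clone 3 was lower. With the block the log2 fold change was 0.07 (95% interval -0.17 to 0.30, adjusted p = 0.706, edgeR), and Hoxa7 shares 7.96% of its body with an antisense gene.

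Of the cofactors, Meis1 (ENSMUSG00000020160, chromosome 11 from 18879817 to 19018985), whose product binds DNA beside HOXA9 and regulates leukemia stem cells, stood at 100.7, 93.6 and 111.8 normalized CPM without DOX. With DOX it stood at 81.4, 92.6 and 97.2. The groups overlapped, and clone 1 differed most. The fits gave -0.16 on the log2 scale without the block (adjusted p = 0.437, edgeR) and -0.16 with it (adjusted p = 0.26, edgeR), with a 95% interval from 0.772-fold to 1.03-fold in the blocked fit. Other annotated genes cover 24.41% of its exonic bases.

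Pbx3 (ENSMUSG00000038718, chromosome 2 from 34171457 to 34373142), the other cofactor of HOXA9, stood at 231.4, 178.0 and 156.6 normalized CPM without DOX. With DOX the values were 197.2, 186.7 and 158.0. The clones kept their order in both conditions and the groups overlapped throughout. With the block it was -0.04 on the log2 scale (95% interval -0.24 to 0.17, adjusted p = 0.814, edgeR).

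Myb (ENSMUSG00000019982, chromosome 10 from 21124935 to 21160984), a transcription factor that keeps hematopoietic progenitors proliferating, stood at 443.8, 425.2 and 482.7 normalized CPM without and at 410.0, 367.8 and 477.5 with DOX. All clones were lower with DOX, clone 3 barely so, and the groups overlapped. The blocked log2 fold change was -0.10 (95% interval -0.28 to 0.08, adjusted p = 0.417, edgeR). An antisense gene covers 50.05% of the exonic bases of Myb, and the strand setting of the counting is not stated.

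Mef2c (ENSMUSG00000005583, chromosome 13 from 83504034 to 83667080), a MADS-box transcription factor linked to leukemia stem cells, differed between clones far more than with DOX. It stood at 8.81, 4.61 and 0.684 normalized CPM in untreated clones 1, 2 and 3, and at 8.27, 5.75 and 1.47 with DOX. Clone 1 was highest and clone 3 lowest in both conditions, and the highest untreated clone stood 12.9-fold above the lowest. Only 0.231% of the 10830 genes above the level named above had a larger range among the untreated clones, where the median range was 0.24 on the log2 scale and that of Mef2c was 3.60. The fold change was 0.15 on the log2 scale without the block (95% interval -1.74 to 2.04) and 0.35 with it (95% interval -0.18 to 0.87, adjusted p = 0.335, edgeR). By contrast, the highest untreated clone exceeded the lowest by 1.14-fold to 1.48-fold for Hoxa7, Hoxa9, Hoxa10, Meis1, Pbx3 and Myb.

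Hmga2 (ENSMUSG00000056758, chromosome 10 from 120361275 to 120476469), an oncofetal target of the let-7 microRNAs, had 33 counts over all libraries. There were 1, 2 and 5 counts in the untreated clones, 4, 3 and 3 with DOX, 7 and 1 in untreated MLL-AF9-ieGFP at 48 h and 72 h, and 3 and 4 with DOX there. The values are at or near the limit of 3 counts, and no direction is read from them. Eya1 (ENSMUSG00000025932, chromosome 1 from 14168954 to 14310235) had its single count in untreated clone 2, and 0 counts in a library allow up to 0.0854 CPM.

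**Figure D2:**
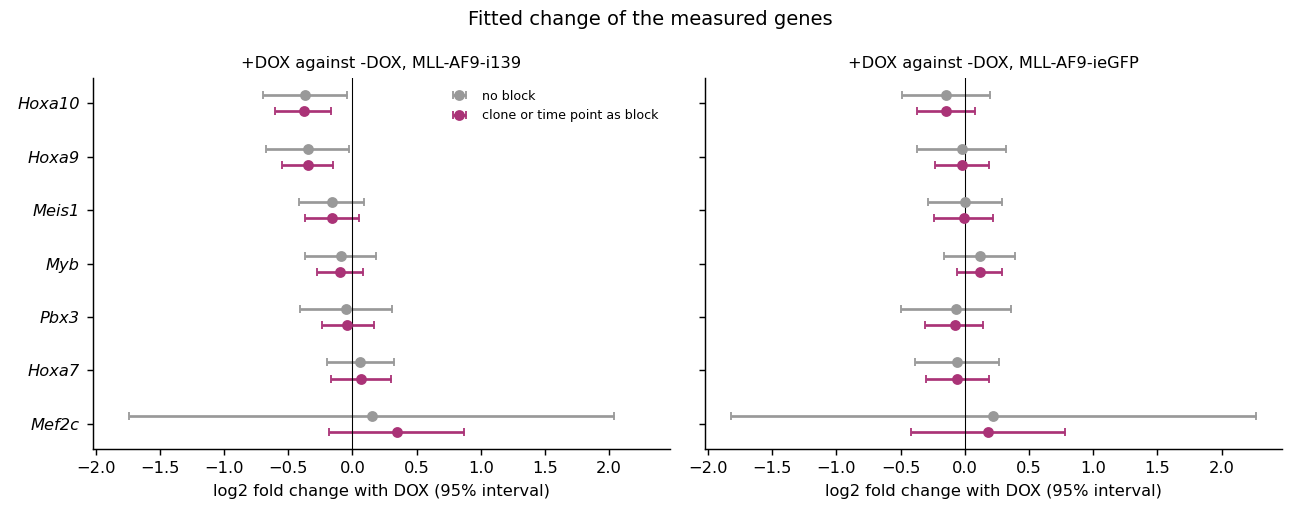
Log2 fold change with DOX (x axis, bars are 95% intervals) of the 7 genes above the count limit, in MLL-AF9-i139 on the left and MLL-AF9-ieGFP on the right. Grey points are fits without and purple points fits with the clone or time point as a block; the purple intervals of Hoxa10 and Hoxa9 lie below 0 on the left and span 0 on the right, and the grey interval of Mef2c on the left runs from -1.74 to 2.04.

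The MLL-AF9-ieGFP cultures were the control for DOX and an induced transgene without miR-139. None of the 8 genes was called there (edgeR), with 0 of 20269 genes called overall (0.0%), 259 at an unadjusted p under 0.05, which is 1.28%, and 1 gene (0.00493%) called by DESeq2. Their log2 fold changes lay between -0.15 and 0.22. Hoxa10 stood at 103.6 and 103.7 normalized CPM without DOX, at 48 h and 72 h, and at 99.7 and 87.7 with DOX, so that it was lower at both times. Hoxa9 stood at 98.2 and 115.0 without and at 103.8 and 106.2 with DOX, higher at 48 h and lower at 72 h.

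The difference between the constructs was tested as the interaction of construct and DOX, which called 0 of the 8 genes and 1 of 20269 overall (0.00493%, edgeR). With the block it called 0 of the 8 and 0.187% of all genes. For Hoxa9 it was -0.34 on the log2 scale (95% interval -0.62 to -0.07, adjusted p = 0.179, edgeR with the block) and for Hoxa10 -0.25 (95% interval -0.54 to 0.04, adjusted p = 0.343, edgeR with the block). The lower level of these genes in MLL-AF9-i139 is thus not shown to differ from the control. At matched times, the log2 change of Hoxa10 minus that of the control was -0.39 for the mean of clones 1 and 2, and -0.05 for clone 3. For Hoxa9 these differences were -0.44 and -0.24.

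Myb was lower in each MLL-AF9-i139 clone and higher at both MLL-AF9-ieGFP time points, from 383.4 to 416.8 normalized CPM at 48 h and from 401.2 to 433.2 at 72 h. The difference between the constructs was -0.22 (log2, SE 0.16, adjusted p = 0.67, edgeR) without and -0.23 (SE 0.10, adjusted p = 0.267, edgeR) with the block.

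The Hoxa cluster holds homeobox genes in a row on chromosome 6 whose order along the DNA follows the order of the body parts that they pattern. Of 14 genes listed for the cluster, 6 were measured. Hoxa3, Hoxa4, Hoxa5, Hoxa6 and Mir196b had 0 counts, and the annotation places 100% of each inside other genes, so these zeros do not show that the genes were silent. Hoxa13 and Hottip, a long noncoding RNA beyond it, had 5 and 6 counts, and Evx1 had 0.

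With the block, 3 of the 6 were called lower and 1 higher, beside 5.33% and 7.05% of all genes. Without it edgeR called none, although 4 had an unadjusted p under 0.05, as did 20.6% of all genes. DESeq2 without the block called Hoxa11 and Hotairm1 (adjusted p = 0.0439 and 0.0203), beside 8.09% of all genes. Hoxa11, next to Hoxa10, stood at 43.5, 48.9 and 49.1 normalized CPM without DOX and at 20.2, 27.6 and 40.1 with DOX. The groups did not overlap, as for 12.8% of all genes in this direction, and clone 3 changed least. With the block it was -0.73 on the log2 scale (SE 0.15, adjusted p = 0.0314, edgeR), and without it the adjusted p was 0.159. In MLL-AF9-ieGFP, Hoxa11 stood at 40.6 and 41.0 normalized CPM without and at 38.9 and 36.6 with DOX, at 48 h and 72 h. An antisense gene covers 38.27% of its body.

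Hotairm1, a noncoding RNA at the other end of the cluster, was the gene called higher. It rose from 1.93, 2.99 and 2.38 to 4.66, 5.32 and 3.33 normalized CPM. Here too the groups did not overlap, as was so in this direction for 12.0% of all genes tested. The blocked fit gave 0.88 on the log2 scale (SE 0.20, adjusted p = 0.0367, edgeR; 0.135 without the block), and other annotated genes cover 35.59% of its body.

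Read along the chromosome from Hotairm1 to Hoxa11, the log2 fold changes with the block were 0.88, 0.26 for Hoxa2, 0.07 for Hoxa7, -0.35 for Hoxa9, -0.38 for Hoxa10 and -0.73 for Hoxa11. In this fit, those at the Hotairm1 end were above 0 and those at the Hoxa11 end below 0. Single clones departed from this, with Hoxa2 at -0.03 in clone 1 and Hoxa7 at -0.13 in clone 3. In MLL-AF9-ieGFP the changes at 48 h and 72 h were 0.05 and 0.22 for Hotairm1, -0.38 and -0.94 for Hoxa2, and -0.06 and -0.17 for Hoxa11. The interaction of construct and DOX called 0 of the 6 genes (edgeR, with or without the block). Hoxa2 and Hoxa7 did not pass the test, and Hoxa2 rests on 237 counts in total. Neighbouring genes share libraries and, here, overlapping transcripts, and the order was noticed in these data, so it is given as a description with no test. In clone 3 the range was narrower, from 0.47 for Hotairm1 to -0.29 for Hoxa11, than in clone 1, from 1.25 to -1.10.

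**Figure D3:**
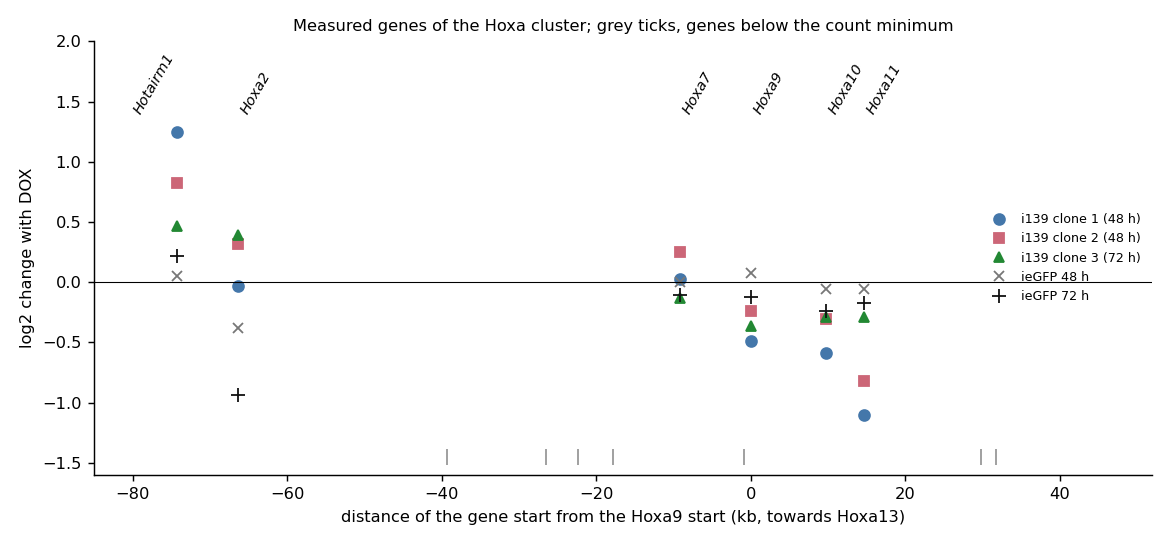
Log2 change with DOX (y axis) of the 6 measured genes listed for the Hoxa cluster against the distance of their start from that of Hoxa9 in kb (x axis), for each MLL-AF9-i139 clone and each MLL-AF9-ieGFP time point. Clone 1 runs from 1.25 at Hotairm1 to -1.10 at Hoxa11, and grey ticks mark genes below the count minimum, with Evx1 beyond the right edge.

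The cofactor list, TALE homeobox genes that pair with HOX proteins (the Meis, Pbx, Pknox and Tgif families), had 11 measured genes. None was called by edgeR in all 3 clones, with or without the block. When clone 3 was left out, 6 were called with the block, 4 lower and 2 higher. That fit had 1 residual degree of freedom and called 7974 genes, against 2381 of 19223 with all 3 clones. The median log2 fold change of the 11 genes was -0.07 with the block in all 3 clones, from -0.70 to 0.50. The MEF2 and MYB families had 6 of 7 genes measured and none called in either fit, with a median of -0.02. DESeq2 with the block called 1 of these, Mybl2, a cell cycle transcription factor, lower (adjusted p = 0.0179), beside 15.8% of all genes. The edgeR fit with the block and without clone 3, with its 7974 calls over all genes, called 3 of the 6.

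Eya1 belongs to a family of coactivators that work with homeobox proteins of the sine oculis type, and 5 of the 10 genes listed for both families were measured. Only Eya2 was called, lower, beside 5.33% of all genes (log2 fold change -1.35, SE 0.26, adjusted p = 0.0288, edgeR with the block, and adjusted p = 0.0959 without it). Eya2 had 47, 34 and 32 counts without DOX and 18, 13 and 11 with it in MLL-AF9-i139. In MLL-AF9-ieGFP the counts were 54 and 37 without and 23 and 25 with DOX, so it was lower with DOX in all 5 pairs of cultures. In MLL-AF9-ieGFP it was -0.84 on the log2 scale with the block (SE 0.28, adjusted p = 1.0, edgeR), and the difference between the constructs was -0.53 (adjusted p = 0.501, edgeR).

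For Hmga2, the list held its paralog Hmga1 and the genes of the let-7 axis, in which the RNA-binding proteins LIN28A and LIN28B block let-7 and the IGF2BP proteins are let-7 targets. All 7 were measured, and with the block 2 were called, both lower, beside 5.33% of all genes called lower. Without it edgeR called none. Hmga1 stood at 573.5, 661.5 and 639.3 normalized CPM without and at 345.4, 395.4 and 575.9 with DOX, and in MLL-AF9-ieGFP at 635.8 and 752.5 without and 635.3 and 735.5 with DOX. This was -0.53 on the log2 scale (SE 0.12, adjusted p = 0.0404, edgeR with the block). Lin28b stood at 99.4, 92.4 and 106.1 without and at 53.4, 56.3 and 90.8 with DOX (log2 fold change -0.60, SE 0.13, adjusted p = 0.0345, edgeR with the block). For Hmga1, clone 3 with DOX was above the lowest untreated clone, so the groups overlapped. For Lin28b they did not, as for 12.8% of all genes in this direction.

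Of 18 other genes tied to the program, 16 were measured. With the block edgeR called 2 lower and 2 higher, beside 5.33% and 7.05% of all genes, and without it none. DESeq2 without the block called Cdk6 lower (adjusted p = 0.0472) and Id2 higher (adjusted p = 1.69e-06), beside 8.09% of all genes. The median log2 fold change of the 16 genes was -0.01 with the block. Cdk6, the kinase that drives entry into S phase and a dependency of MLL-rearranged cells, stood at 1769, 1478 and 1669 normalized CPM without and at 1124, 975.2 and 1398 with DOX. The groups did not overlap, as for 12.8% of all genes in this direction. The log2 fold change of Cdk6 was -0.49 (SE 0.10, adjusted p = 0.0289, edgeR with the block). Myc, the growth factor-responsive transcription factor, stood at 316.2, 364.7 and 363.7 without and at 215.2, 228.3 and 316.6 with DOX. This was -0.46 on the log2 scale (SE 0.10, adjusted p = 0.0359, edgeR with the block), and clone 3 with DOX overlapped with untreated clone 1.

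The genes called higher were Id2 and Cd34. Id2, an inhibitor of helix-loop-helix factors, stood at 2.81, 2.30 and 2.26 without and at 20.1, 11.3 and 5.31 with DOX (log2 fold change 2.17, SE 0.29, adjusted p = 0.0198, edgeR with the block). The authors list Id2 with myeloid differentiation factors that were lower in MLL-AF9 cells than in wild-type HSPCs. Cd34, a progenitor surface marker, had 0, 1 and 0 counts without and 20, 8 and 3 with DOX, and no fold change is given for it.

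**Figure D4:**
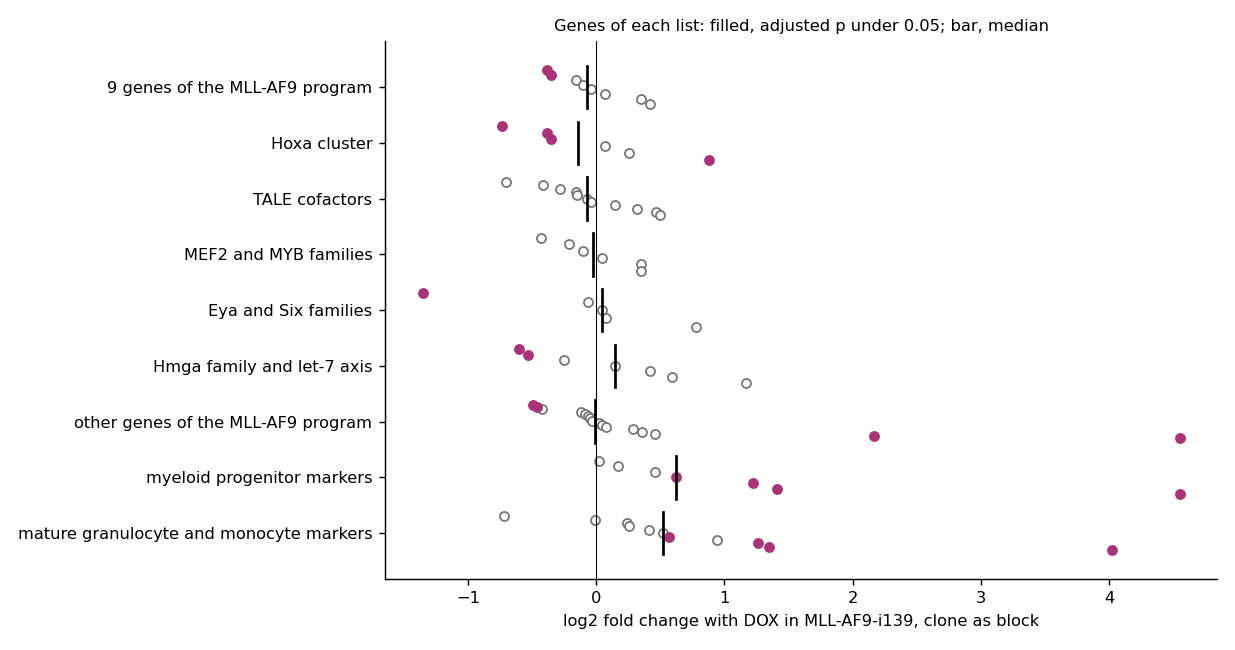
Log2 fold change with DOX in MLL-AF9-i139 with the clone as a block (x axis) of every measured gene of 9 lists (rows). Filled points have an adjusted p under 0.05 and bars are list medians; of the 9 named genes 2 are filled, of the TALE cofactors and of the MEF2 and MYB families none, and the filled marker genes all lie above 0. The point farthest right in 2 rows is Cd34, whose fitted value rests on 0 or 1 untreated counts per library.

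Over the 7 lists other than markers, 50 of 65 genes were measured, and 8 were called lower and 3 higher with the block, beside 5.33% and 7.05% of all genes. The interaction of construct and DOX called no gene of these lists (edgeR). Over all genes it called 0.00493% without the block and 0.187% with it. Of the 11 called genes, 9 changed least in clone 3, the exceptions being Hoxa9 and Eya2, and among all genes tested 56.7% changed least in clone 3. Without clones 1 or 2 and with the block, none of the 8 genes called lower was called. Over all genes, those fits called 324 without clone 1 and 580 without clone 2, against 2381 with all 3 clones. Of the 3 called higher, Hotairm1 was lost without either clone (adjusted p = 0.214 and 0.096, edgeR), Cd34 was lost without clone 1 (adjusted p = 0.189, edgeR), and Id2 was called without either (adjusted p = 0.00994 and 0.00178, edgeR).

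Genes called lower were found with and without a seed match. Of the 12 measured list genes with a match of 7 or 8 bases to miR-139-5p, 2 were called lower with the block, Hoxa9 and Cdk6, which is 16.7%. Of the 37 without one, 6 were called lower, which is 16.2%: Eya2, Hmga1, Hoxa10, Hoxa11, Lin28b and Myc. Among all tested genes with a 3′ UTR the shares were 7.8% with and 6.58% without a match, and the median 3′ UTR was 2424 bases long in the first group and 835 in the second. Cdk6 held 6 such matches to miR-139-5p and 2 to miR-139-3p in a 3′ UTR of 10217 bases. These shares carry no test, and the levels of miR-139 itself could not be read here, since Mir139 lies inside other genes and had 0 counts.

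Myeloid markers moved at the same time. The summed level of the 8 myeloid progenitor markers lay between 989.0 and 1200.0 normalized CPM in untreated and between 2190.0 and 2300.0 in DOX-treated MLL-AF9-i139 clones without overlap, against 1110.0 to 1230.0 and 1290.0 to 1510.0 in MLL-AF9-ieGFP. Mpo alone made up 414.2 to 615.0 of the untreated and 1244 to 1669 of the DOX sums in MLL-AF9-i139. Without Mpo the list summed to 575.0 to 589.0 untreated and to 995.0, 943.0 and 632.0 with DOX in clones 1, 2 and 3, and in MLL-AF9-ieGFP to 582.0 to 584.0 and 583.0 to 586.0. Of the 7 measured, 4 were called higher with the block and none lower, beside 7.05% and 5.33% of all genes. Among the 4 were Mpo (myeloperoxidase, log2 fold change 1.41, SE 0.13, adjusted p = 0.00955, edgeR) and Fcgr3 (an Fc receptor, log2 fold change 1.22, SE 0.26, adjusted p = 0.0332, edgeR). The others were Spi1 and Cd34, which had 0 or 1 count in each untreated library. In MLL-AF9-ieGFP, Mpo also rose with DOX, from 523.6 to 705.2 normalized CPM at 48 h and from 642.1 to 927.4 at 72 h. Fcgr3 went from 94.35 to 90.59 and from 95.25 to 92.18 there. Of 12 mature granulocyte and monocyte markers, 11 were measured. With the block 4 were called higher, Ngp, Cxcr2, Csf1r and Cebpe, and none lower, beside the same shares of all genes. Without the block edgeR called none of either list. With the block and without clone 1, Mpo was the only progenitor marker called, and Ngp and Cxcr2 the only mature ones. Without clone 2 the called markers were Mpo, Fcgr3 and Cd34, and Ngp, Cxcr2 and Csf1r. Fewer genes were called over all genes in those fits too. The mature list summed to 221.0 to 323.0 without and 298.0 to 540.0 with DOX in MLL-AF9-i139, against 415.0 to 482.0 and 400.0 to 510.0 in MLL-AF9-ieGFP. Kit, a marker of immature cells, had mean levels of 142.6 normalized CPM without and 144.0 with DOX. The part of a shift in cell maturity in the lower levels of Hoxa9, Hoxa10 and Hoxa11 was not tested.

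By Pearson's r of log2 CPM over the 10 libraries, the genes most like Hoxa9 among 10672 genes were Shld2 (0.968), Pi4k2b (0.960) and Dnah14 (0.946). Those most like Meis1 were Brcc3 (0.898), Magi2 (0.888) and Dgki (0.878). Within the program, r with Hoxa9 was 0.720 for Myb, 0.612 for Meis1, 0.575 for Hoxa10, 0.285 for Hoxa7, -0.29 for Pbx3 and -0.647 for Mef2c. By likeness to Hoxa9, Myb ranked 1191, Meis1 2264 and Hoxa10 2581 among the 10672 genes, so many genes outside the program were more alike. The libraries share clones, so these values describe this set of libraries only.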

How the data were processed

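Total RNA libraries depleted of ribosomal RNA were sequenced by the authors, mapped to GRCm38 with STAR (version 2.5.3e) and counted per gene with FeatureCounts (version 1.6.0) on GENCODE M15. The deposited values are raw counts, without normalization or a filter, and the 2 deposited tables hold the same values (0 differing). One table holds 14 columns of other samples, which were not used. Genes that lie inside other genes have 0 or few counts in these tables. The strand setting is not given in the sources used here. Gene positions, exons and 3′ UTRs came from GENCODE M21 on GRCm38, and 52403 of 52550 identifiers had a symbol.

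Genes with at least 10 counts in total were tested with edgeR (version 4.0.16, R 4.3.3, TMM, quasi-likelihood test, Benjamini-Hochberg adjustment over all genes, threshold 0.05). The change with DOX in MLL-AF9-i139 was fitted on the 6 libraries of its clones without a block. MLL-AF9-ieGFP and the difference between constructs were fitted on all 10 libraries in 4 groups. Normalized CPM are counts per 1000000 of the TMM-scaled library, changes per clone are on the log2 CPM scale (prior count 2), and ± is the SD.

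The untreated and DOX cultures of a number are the same clone. Deviations from the group means correlated over 19223 genes with r = 0.381, 0.288 and 0.414 within clones 1, 2 and 3 and between -0.315 and -0.044 across clones, so the clone was also fitted as a block, and the time point in MLL-AF9-ieGFP. Other alternatives were DESeq2 (version 1.42.0), RLE or no scaling factors, 2 other filters, a fit of all 10 libraries and leaving out each clone or time point. Scripts were tested on simulated counts. The 9 genes and the lists were chosen with earlier results of these data known. Named were the 9 genes and, of each list, at most 4 genes called with or without the block, by p of the blocked fit, and for Hoxa9 and Meis1 the 3 genes with the highest r among those with an average log2 CPM of at least 1. Mybl2 was named after its value was seen. Of the genes first listed, 3 are not reported here and were left out of the counts, sums and medians of their lists. Intervals are 95% intervals, and the limit of 3 counts covers counting error only.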

Additional observations from a re-analysis of the deposited data

Results flagged for a closer look

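Myb stood out because its change with DOX had opposite directions in both constructs: it was lower in each of the 3 MLL-AF9-i139 clones (log2 changes -0.11, -0.21 and -0.02) and higher at both MLL-AF9-ieGFP time points (0.12 and 0.11). The difference between the constructs in their change was -0.22 on the log2 scale and did not pass the threshold (adjusted p = 0.67, edgeR; -0.23 and adjusted p = 0.267 with the block). No cause was tested.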

How the results depend on the processing

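Hoxa9 and Hoxa10 were lower with DOX in MLL-AF9-i139 under all 15 alternatives (log2 fold changes -0.41 to -0.30 and -0.43 to -0.30), as were Meis1 (-0.24 to -0.11) and Myb (-0.14 to -0.05), but whether Hoxa9 and Hoxa10 were called depended on the block. Of the 8 genes, 0 were called without it, 2 with the replicate block, 2 by DESeq2 with it and 2 in a fit of all 10 libraries with it. Leaving out each clone gave 0 to 1 without the block (Hoxa9, without clone 3) and 0 to 3 with it (3 without clone 3). Over all genes, 12 were called without the block, 8 with RLE factors, 2 without scaling factors, 562 with a minimum of 1 count, 6 with at least 10 counts in at least 3 libraries, 1234 on all 10 libraries and 1556 by DESeq2. The replicate block gave 2381, with DESeq2 3037 and on all 10 libraries 4505. Without 1 clone the count was 0 to 3981 (1 without clone 1, 0 without clone 2, 3981 without clone 3), and with the block 324, 580 and 7974 without clones 1, 2 and 3. The fits without scaling factors, of DESeq2 with the block, of all 10 libraries with the block, and with the block and without 1 clone were chosen after seeing the data.

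In MLL-AF9-ieGFP 0 genes were called, or 1 by DESeq2, 1 with a minimum of 1 count and 3 by DESeq2 with the replicate block. The difference between the constructs had 1 call, or 82 by DESeq2, 71 with a minimum of 1 count, 38 with the replicate block, 720 by DESeq2 with it, 0 without scaling factors, 0 with at least 10 counts in 3 libraries, and 0 to 2011 without 1 culture pair (2011 without clone 3). In no alternative was any of the 8 genes called in either comparison. Where 1 MLL-AF9-ieGFP time point was left out, the lone culture was assumed to vary like the other groups.

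Signs turned for log2 fold changes near 0 or from few counts, and for Mef2c in MLL-AF9-ieGFP and in the difference between the constructs. In MLL-AF9-i139, leaving out 1 clone gave Hoxa7 -0.04 to 0.16 (-0.04 without clone 2, also with the block), Pbx3 -0.11 to 0.04 (0.04 without clone 1, also with the block) and Hmga2 -0.15 to 1.25 (-0.12 with the block without clone 1). In MLL-AF9-ieGFP, leaving out 1 pair gave Hoxa7 -0.13 to 0.0076, Hoxa9 -0.13 to 0.08, Meis1 -0.15 to 0.12, Pbx3 -0.23 to 0.05, Mef2c -0.19 to 0.48 and Hmga2 -0.97 to 1.79. Meis1 was 0.0011 there with a minimum of 1 count, and Hmga2 0.02 with the replicate block and 0.26 by DESeq2 with it. For the difference between the constructs the ranges were -0.12 to 0.18 for Pbx3, -0.34 to 0.35 for Mef2c and -1.43 to 1.33 for Hmga2, and Mef2c was 0.13 with the replicate block and 0.20 by DESeq2 with it. The causes were not tested. With 3 clones, the 95% intervals of the changes of Meis1 and Myb included no change, and at 1 to 7 counts per library no change of Hmga2 could be read.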
